A study of Homo sapiens with 6 samples.

Results

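The Notch genes examined here are 10 genes of one signalling pathway. They are the ligands JAG1 and JAG2, the receptors NOTCH1, NOTCH2 and NOTCH3, the targets HES1, HEY1 and NRARP, and the nuclear factors RBPJ and MAML1. They were chosen by symbol, with earlier results of these data known, and all 10 matched an Ensembl ID among the 17104 genes of the count table. Gene expression was measured by RNA-seq of total RNA in cells labelled as the brain endothelial line HBMEC. By title there are 3 CON libraries and 3 OGD libraries. They are read here, from the series' design text, as HBMEC kept in normal culture and HBMEC that went through OGD/R, short for oxygen-glucose deprivation with reperfusion, in which oxygen and glucose are withdrawn and then given back. Both groups are the same line, and no other agent, allele or treatment is named for either. The length of either phase is not given in the labels. Whether replicates were grown as separate cultures is not stated either, and the p-values therefore speak only of the spread among these 6 libraries, part or all of which may be technical.

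Total counts per library ran from 31048662 to 34484647. The label of the cells was checked against marker genes. Of 16 endothelial markers, 5 had a value, with a summed level of 283 to 298.7 CPM (the count scaled to a common library size) in CON and 288.5 to 299.9 CPM in OGD. PECAM1, VWF, KDR, TEK, TIE1 and ERG, which define endothelium, were among the 11 not analysed here. Of 16 epithelial markers, 10 had a value, and their sum was 2498 to 2724 CPM in CON and 3059 to 3114 CPM in OGD. In the same test as below, 4 of these 10 (KRT7, KRT8, KRT18 and ELF3) were higher in OGD and 0 were lower (10.2% and 9.48% of all genes), while of the endothelial markers CDH5 was higher and SOX18 lower. Of the epithelial list, KRT19, CLDN3, CLDN7, GRHL2, OVOL1 and ST14 were not analysed here either. With 11 of 16 endothelial markers lacking a value, the lists do not bear out an endothelial label. The cells are called HBMEC here only as the labels do. The part of the epithelial genes in the results on Notch genes was not tested.

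Notch signalling passes between neighbouring cells. A ligand of the Jagged or Delta-like family on one cell binds a Notch receptor on the next, the receptor is cut by an ADAM protease and then by the gamma-secretase complex, and its intracellular part moves to the nucleus. There it joins the DNA-binding protein RBPJ and a Mastermind coactivator such as MAML1, and switches on targets that include the repressors HES1 and HEY1 and the feedback inhibitor NRARP. In blood vessels the pathway is known for arterial identity and for the choice between tip and stalk cells during sprouting, and in epithelia for choices of cell fate.

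RBPJ is known to bind DNA around the core TGGGAA, and the promoters of the targets HES1 and NRARP, both lower in OGD, are shown for this reason. The windows run from 250 bases before to 50 bases after the annotated start and come from RefSeq on GRCh38.p14, 5′ to 3′ on the gene's strand, with any TGGGAA or its reverse complement in capitals. The HES1 window is chr3:194135898-194136197 on the plus strand and the NRARP window chr9:137302222-137302521 on the minus strand.
HES1: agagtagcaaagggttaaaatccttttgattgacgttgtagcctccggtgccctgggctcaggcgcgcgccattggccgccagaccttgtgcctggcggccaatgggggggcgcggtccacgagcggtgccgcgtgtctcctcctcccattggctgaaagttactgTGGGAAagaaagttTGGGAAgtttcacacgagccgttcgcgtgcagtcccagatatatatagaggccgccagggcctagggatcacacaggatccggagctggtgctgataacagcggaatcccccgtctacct
NRARP: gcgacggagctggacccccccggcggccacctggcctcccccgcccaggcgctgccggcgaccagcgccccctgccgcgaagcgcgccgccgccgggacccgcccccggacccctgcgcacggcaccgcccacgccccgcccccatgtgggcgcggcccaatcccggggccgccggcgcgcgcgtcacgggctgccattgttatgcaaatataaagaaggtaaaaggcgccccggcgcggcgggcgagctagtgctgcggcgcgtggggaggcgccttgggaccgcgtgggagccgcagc
The HES1 window held TGGGAA at 2 places on the gene's own strand, with first bases 84 and 70 bases before the start. The first of them was part of the longer form GTGGGAA. The NRARP window held 0. With both strands searched, 24.0% of 35116 annotated windows of this length held TGGGAA, 3.80% held it at 2 or more places, and 6.25% held GTGGGAA. Of the 9 Notch genes whose windows were searched, in 13 windows because RBPJ has several starts, HES1 and RBPJ held TGGGAA. By window this was 2 of the 13. No window of the target HEY1 was searched. The N box, CACNAG, which HES1 itself is known to bind, was found 4 times in the HES1 window and 1 time in the NRARP window. Of all windows, 38.0% held it at least once and 8.94% at 2 or more places. In the HES1 window it did not overlap the TGGGAA sites. These matches are letters in a window and not shown to be sites in use.

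Of the 10 Notch genes, 7 fell in OGD and 0 rose, by edgeR's quasi-likelihood test at an adjusted p under 0.05. Of all 17104 genes tested, 9.48% fell by the same rule, 10.2% rose, and 19.7% passed in either direction. The 10 were chosen with earlier results of these data known, so the gap to these shares is a description and no test of the pathway. Both ligands, all 3 targets and the receptors NOTCH1 and NOTCH2 were among the 7, while NOTCH3, RBPJ and MAML1 did not pass. Of the 7, HEY1 rests on few reads, with 8 to 10 counts per OGD library, and its presence among the tested genes leans on CON. The median log2 fold change of the 10 was −0.44, beside a median of 0.00 over all genes. In 8 of the 10 every OGD library lay below every CON library, as it did in 16.6% of all genes. With scaling by total counts alone, 1383 of all genes rose and 2098 fell in place of 1749 and 1621, and 8 Notch genes fell, MAML1 being added (12.3% of all genes fell under that scaling, 8.09% rose and 20.4% passed in all). In these bulk libraries a loss of cells that express a gene and a loss of its RNA per cell cannot be told apart.

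**Figure D1:**
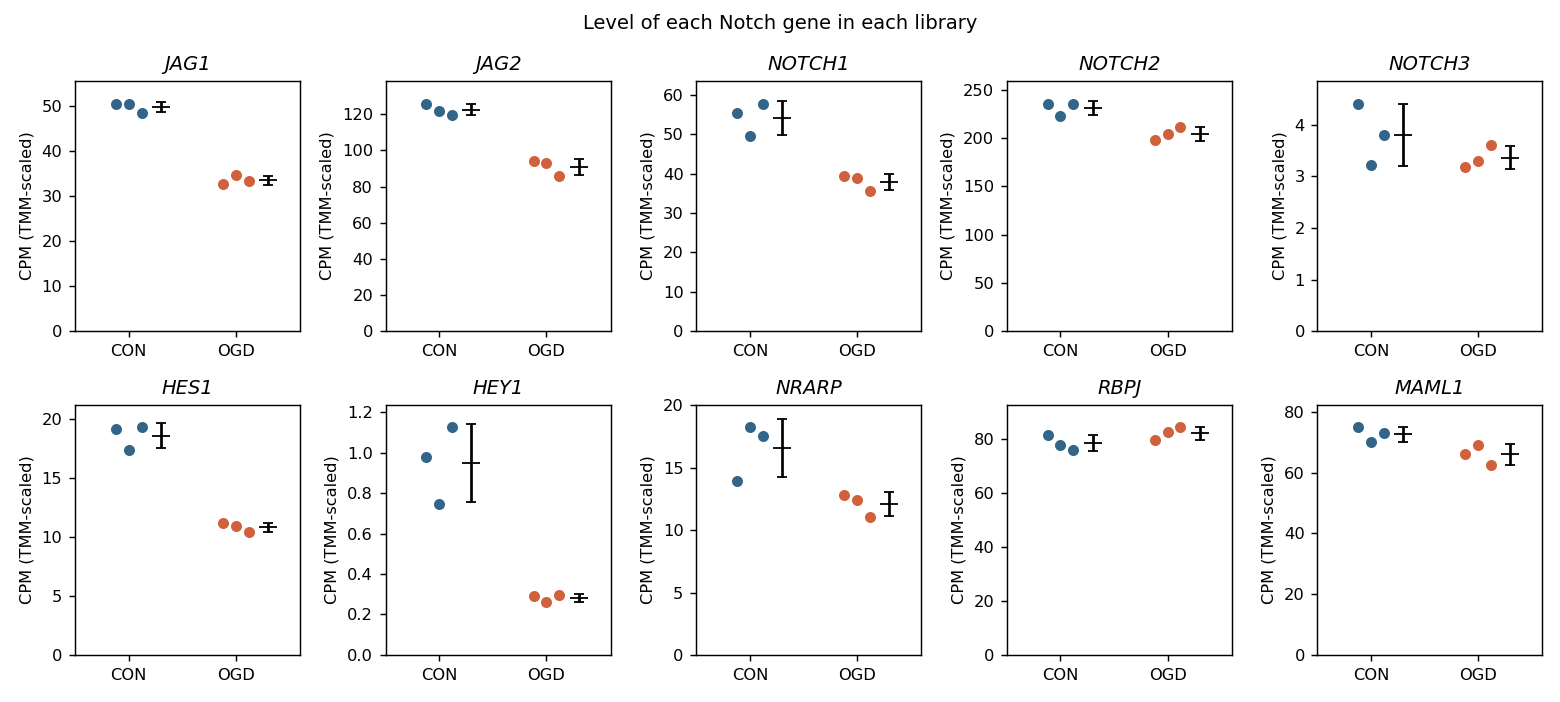
Levels of the 10 Notch genes in TMM-scaled CPM, 1 panel per gene with an axis from 0. Each point is 1 library (blue CON, orange OGD), and the black mark gives the mean with a bar of 1 SD (n = 3). For JAG1, JAG2, NOTCH1, NOTCH2, HES1, HEY1, NRARP and MAML1 all OGD points lie below all CON points, and for NOTCH3 and RBPJ the groups overlap.

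The Jagged ligands present the signal to the receptors. JAG1 (ENSG00000101384) was at 50.5, 50.5 and 48.4 CPM in CON replicates 1, 2 and 3 and at 32.6, 34.6 and 33.2 CPM in the OGD replicates. The groups lay far apart, and the spread within each was close to that of counting alone: the coefficient of variation was 2.38% in CON and 3.02% in OGD, and that expected from the counts was 2.47% and 3.02%. JAG1 thus fell by 32.8% (log2 fold change −0.57 ± 0.07 SE, n = 3 each, edgeR adjusted p = 2.42e-09). JAG2 (ENSG00000184916) was at 126, 122 and 119.6 CPM in CON and at 94.1, 92.9 and 85.9 CPM in OGD. The lowest of its CON libraries was above the highest of its OGD libraries, and JAG2 fell by 25.7% (−0.43 ± 0.05, edgeR adjusted p = 1.89e-09). In JAG2, 7.33% of the exon bases overlap another gene, so a small part of its reads may not be its own.

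JAG2 was the more abundant ligand per length. Divided by the length of the longest annotated coding transcript, the mean level in CON was 21.0 CPM per kilobase for JAG2 and 8.38 for JAG1, and in OGD 15.6 and 5.64. The ratio of JAG1 to JAG2 counts within a library, which no scaling factor touches, was 0.401, 0.414 and 0.405 in CON and 0.346, 0.373 and 0.387 in OGD. All 3 OGD ratios were below the CON ratios, with a difference of −0.14 on the log2 scale. The exact two-sided permutation test gave p = 0.1, the smallest that 3 against 3 libraries allow (0.117 after Benjamini-Hochberg adjustment over the 7 ratios examined).

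Among the receptors, NOTCH1 and NOTCH2 differed in how much they fell. NOTCH1 (ENSG00000148400) was at 55.2, 49.4 and 57.7 CPM in CON and at 39.3, 38.8 and 35.6 CPM in OGD. The CON libraries were spread more widely than counting would give (coefficient of variation 7.86% against 2.37%), and the groups did not overlap. NOTCH1 fell by 29.9% (−0.51 ± 0.07, edgeR adjusted p = 5.18e-08). NOTCH2 (ENSG00000134250) was at 236, 223 and 235 CPM in CON and at 198, 204 and 211 CPM in OGD. Its groups were close but did not overlap, and NOTCH2 fell by 11.6% (−0.18 ± 0.04, edgeR adjusted p = 0.00145). This call was lost when transcript length and GC content were corrected for (−0.03, edgeR adjusted p = 0.595). NOTCH3 (ENSG00000074181), a receptor best known from vascular mural cells, was at 4.41, 3.22 and 3.80 CPM in CON and at 3.18, 3.30 and 3.61 CPM in OGD. These ranges overlap, and its value was −0.18 ± 0.20 (edgeR adjusted p = 0.603). At 101 to 144 counts per library the counting error alone was 8.92% in CON and 9.52% in OGD, and the coefficient of variation was 15.7% and 6.59%. The value was −0.06 without CON replicate 1 and −0.28 without CON replicate 2.

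Per length NOTCH2 stood first among the receptors in both groups. Its mean was 20.3 CPM per kilobase in CON and 17.9 in OGD, that of NOTCH1 was 5.81 and 4.07, and that of NOTCH3 was 0.439 and 0.388. The receptor gene NOTCH4, which is known from endothelium, was at 0.292, 0.196 and 0.119 CPM in OGD and at 0.367, 0.685 and 0.456 CPM in CON, with 50 counts in all CON libraries together and 20 in all OGD libraries (−1.30 ± 0.59, edgeR adjusted p = 0.122). NOTCH4 reached 10 counts in every CON library but not in every OGD library, so its presence in the count table leans on CON. The count ratio of NOTCH1 to NOTCH2 was 0.235, 0.222 and 0.246 in CON and 0.199, 0.190 and 0.169 in OGD. The ratio was lower in every OGD library (difference −0.33 on the log2 scale, exact permutation p = 0.1, adjusted 0.117), and the difference was −0.29 with the length and GC trend removed. The ratio of NOTCH3 to NOTCH2 overlapped between the groups (0.01, exact permutation p = 0.9, adjusted 0.9).

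The human NOTCH2 gene has partial copies that can share its reads. NOTCH2NLA, NOTCH2NLB and NOTCH2NLC had CON means of 2.37, 2.78 and 5.26 CPM, far below NOTCH2 itself, and OGD means of 1.81, 2.11 and 4.18 CPM. Their values were −0.39 ± 0.25, −0.40 ± 0.24 and −0.33 ± 0.18, and 0 of the 3 passed (edgeR adjusted p = 0.313, 0.271 and 0.211). No source used here tells how reads that match both a copy and NOTCH2 were counted, so the levels of all 4 are uncertain in source.

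The 3 targets fell, and HEY1 had the largest fold change of the 10 genes. HES1 (ENSG00000114315), a repressor that also limits its own transcription, was at 19.2, 17.4 and 19.3 CPM in CON and at 11.2, 10.9 and 10.4 CPM in OGD. The groups were widely separated, and HES1 fell by 41.7% (−0.78 ± 0.10, edgeR adjusted p = 6.28e-08). HEY1 (ENSG00000164683), a related repressor, was at 0.980, 0.745 and 1.12 CPM in CON and at 0.292, 0.261 and 0.298 CPM in OGD. These are 32, 25 and 37 counts against 10, 8 and 10 counts, so every OGD library was lower but each value rests on few reads. HEY1 fell by 69.8% (−1.73 ± 0.47, edgeR adjusted p = 0.00604, and 0.00438 to 0.0426 over the alternatives that tested it). Every gene of the count table reached 10 counts in at least 3 libraries. HEY1 reached that level in every CON library but not in every OGD library. Its presence among the tested genes thus leans on the group where it was higher.

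NRARP (ENSG00000198435), which lowers Notch activity in a feedback loop, was at 13.9, 18.2 and 17.5 CPM in CON and at 12.8, 12.4 and 11.0 CPM in OGD. CON replicate 1 lay near the OGD libraries, and the CON coefficient of variation was 13.9% where counting would give 4.27%. NRARP fell by 27.0% (−0.45 ± 0.11, edgeR adjusted p = 0.00152). Its value was −0.56 without CON replicate 1 and −0.38 without CON replicate 2 (edgeR adjusted p = 0.0176 for the latter). Per length, HES1 stood at 11.8 CPM per kilobase in CON, NRARP at 9.36 and HEY1 at 0.414, and in OGD they stood at 6.88, 6.83 and 0.124. HES1 and NRARP were thus close to each other per length in OGD, with no test made of that.

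The nuclear factors did not pass. RBPJ (ENSG00000168214), the DNA-binding partner of all Notch receptors, was at 81.7, 77.9 and 75.8 CPM in CON and at 79.5, 82.5 and 84.3 CPM in OGD. The groups overlap, and its value was 0.07 ± 0.05 (edgeR adjusted p = 0.437). MAML1 (ENSG00000161021), a coactivator that docks on the RBPJ and Notch complex, was at 74.9, 70.0 and 73.0 CPM in CON and at 66.2, 69.3 and 62.6 CPM in OGD. Its groups just missed each other, with a value of −0.14 ± 0.06 (edgeR adjusted p = 0.0742). With scaling by total counts alone MAML1 passed (−0.17, edgeR adjusted p = 0.0260), and after the length and GC correction it was at −0.04 (edgeR adjusted p = 0.658). Per length RBPJ and MAML1 were at 13.1 and 12.7 CPM per kilobase in CON.

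Count ratios to RBPJ within a library set the other genes against a nuclear factor that did not pass, without any scaling between libraries. RBPJ itself was at 0.07 in these same libraries, which lowers every ratio to it. The 4 ratios share this denominator and are not independent of the fold changes above. HES1 to RBPJ was 0.235, 0.223 and 0.255 in CON and 0.141, 0.132 and 0.124 in OGD. JAG1 to RBPJ was 0.618, 0.648 and 0.638 in CON and 0.410, 0.419 and 0.394 in OGD. NOTCH1 to RBPJ was 0.676, 0.634 and 0.761 in CON and 0.494, 0.470 and 0.423 in OGD. In each of these 3 ratios all OGD libraries were below all CON libraries, with log2 differences of −0.84, −0.64 and −0.58. MAML1 to RBPJ was lower in OGD as well, at 0.832, 0.839 and 0.743 against 0.917, 0.898 and 0.962 (log2 difference −0.20). With the length and GC trend removed this difference was −0.13 (exact permutation p = 0.2). Uncorrected, each of the 4 had an exact permutation p of 0.1 (adjusted 0.117), the smallest possible.

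**Figure D2:**
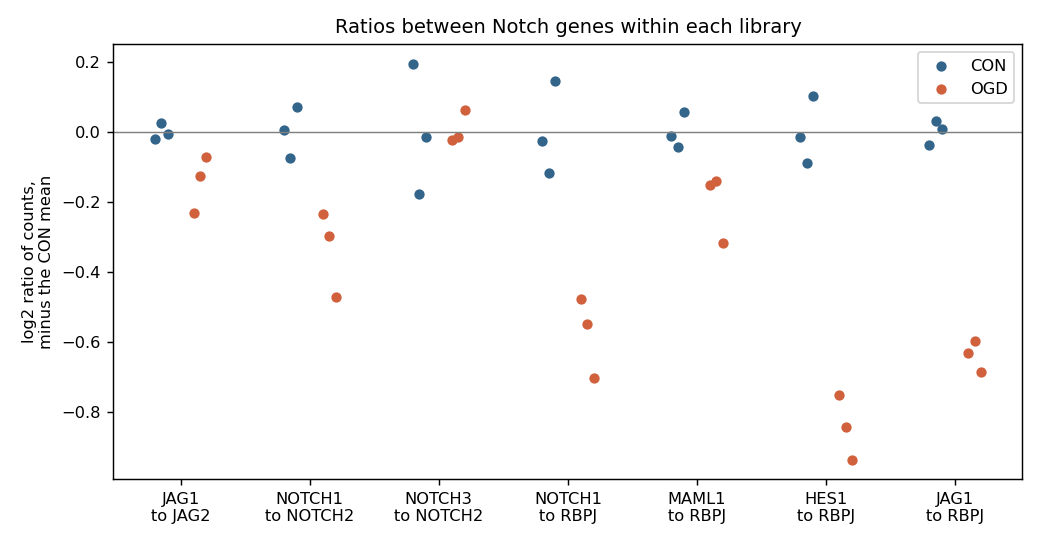
Log2 count ratios of 7 pairs of Notch genes within each library, drawn relative to the mean of the CON libraries (blue CON, orange OGD, 1 point per library). The OGD points lie below the CON points in 6 of the 7 pairs, and overlap with them for NOTCH3 to NOTCH2.

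Transcript length moved with the fold change over all genes, and the Notch genes differ widely in length. When 10848 protein-coding genes of sufficient expression were split by length into 10 classes of about equal size, the class of shortest transcripts had a median log2 fold change of 0.14 and the class of longest ones −0.11. In these classes 2.57% and 32.4% of the genes fell. The longest transcripts of NOTCH1, NOTCH2 and NOTCH3 have 9306, 11389 and 8666 nucleotides, which is within the range of the longest class. JAG1 and JAG2, at 5940 and 5835 nucleotides, are in a class in which 19.4% fell, and HES1 and NRARP, at 1578 and 1770 nucleotides, in one in which 6.65% fell. HES1 and NRARP therefore fell against the trend of genes of their length, and NOTCH1 and NOTCH2 with it.

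After a smooth trend on length and GC content was taken out of each library, 6 of the 10 Notch genes fell and 0 rose, beside 8.80% and 10.3% of all genes (19.1% in either direction). HES1 was then at −0.87, HEY1 at −1.79, NRARP at −0.43 and JAG1 at −0.49. NOTCH1 and JAG2, both long and GC-rich (62.9% and 64.0% GC), kept their calls at −0.32 and −0.28 (edgeR adjusted p = 4.50e-05 and 9.64e-07). NOTCH2 was the gene that lost its call, and NOTCH3 was at 0.01. The median of the 10 genes was −0.30 after the correction.

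**Figure D3:**
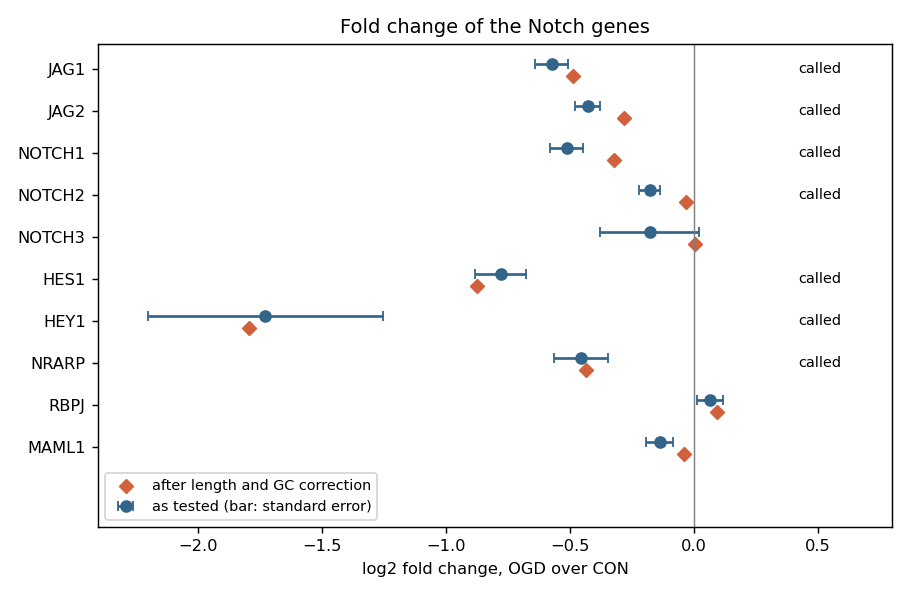
Log2 fold change of each Notch gene, OGD over CON, as tested (blue points, bars of 1 standard error) and after the length and GC correction (orange diamonds). "called" marks the 7 genes with an edgeR adjusted p under 0.05 as tested. The correction moves all genes but HES1, HEY1 and RBPJ nearer to 0. NOTCH2, NOTCH3 and MAML1 come close to 0, while HES1, HEY1, NRARP, JAG1, JAG2 and NOTCH1 stay below it.

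**Figure D4:**
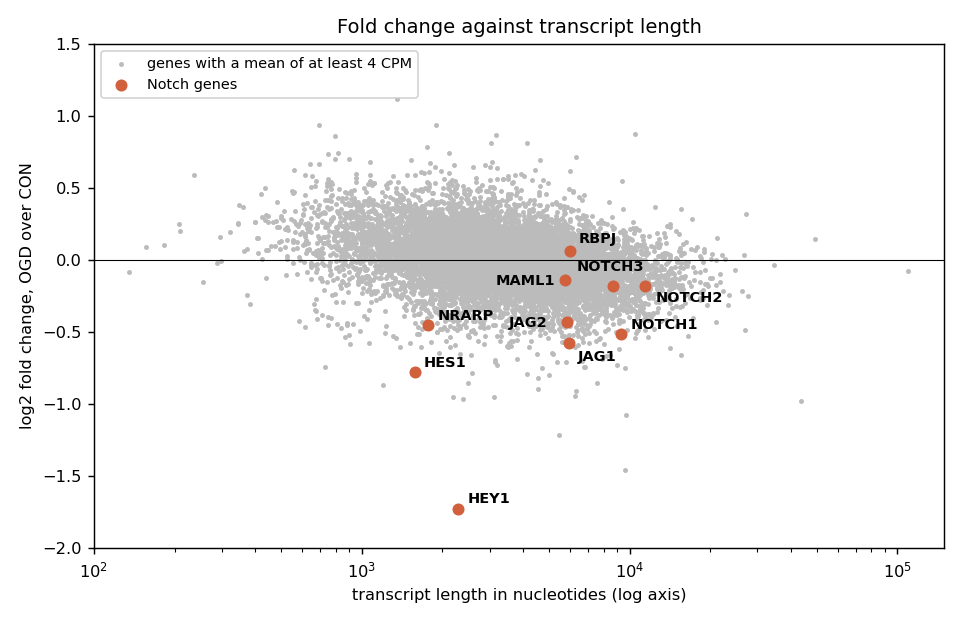
Log2 fold change, OGD over CON, against transcript length on a log axis. Grey points are genes averaging 4 CPM or more and orange points the 10 Notch genes. The grey cloud slopes down towards long transcripts. HES1 and HEY1 (itself below 4 CPM) lie under it, NRARP, NOTCH1, JAG1 and JAG2 lie in its lower part, and NOTCH2, NOTCH3, MAML1 and RBPJ lie inside it.

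Beyond these 10, a list of 65 further genes of the pathway, also chosen with earlier results known, was examined, of which 57 were measured. Of the 57, 15 fell and 4 rose, and 38 did not pass, where 9.48% of all genes fell and 10.2% rose. The number that rose is thus no higher than the share of all genes, and nothing about the pathway is read from it. Their median was −0.04, and 21 lay with all OGD libraries below all CON libraries, as did 16.6% of all genes. The number that rose was 1 without CON replicate 3 and 1 without OGD replicate 3. After the length and GC correction 10 fell and 6 rose (8.80% and 10.3% of all genes), so that the number that rose is near the share of all genes. The call was kept by 9 of the 15 and 2 of the 4, and over all genes by 1089 of 1621 and 1260 of 1749.

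The canonical Delta-like ligands did not pass. DLL1 was at 5.53 to 7.68 CPM in CON and at 5.91 to 8.02 CPM in OGD (0.01 ± 0.15, edgeR adjusted p = 0.976). DLL4, the ligand of endothelial tip cells, was at 1.87, 1.64 and 2.19 CPM in CON and at 1.55, 1.86 and 2.21 CPM in OGD (−0.02 ± 0.27, edgeR adjusted p = 0.975). For both genes the groups overlap. The non-canonical ligand genes DLK2 and DNER fell, DLK2 from 12.2 to 9.16 CPM (−0.42 ± 0.12, edgeR adjusted p = 0.00795) and DNER from 26.6 to 22.6 CPM (−0.23 ± 0.08, edgeR adjusted p = 0.0452). The call of DNER ended with upper-quartile scaling, with DESeq2 and on leaving out CON replicate 2, CON replicate 3, OGD replicate 2 or OGD replicate 3, with adjusted p of 0.0205 to 0.275 over all alternatives. The call of DLK2 ended without OGD replicate 1 (edgeR adjusted p = 0.0802).

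The other HES genes did not follow HES1 past the threshold. Of 4 measured further targets (HES2, HES4, HES6 and HES7), 0 passed by edgeR, with values from −1.02 for HES2, at 0.969 CPM in CON, to 0.08 for HES7. HES2 had adjusted p of 0.0465 to 0.439 over the alternatives. It had 41, 30 and 25 counts in CON and 25, 16 and 6 in OGD, so its presence among the tested genes leans on CON too. In 2 of the 4, HES2 and HES6, every OGD library lay below every CON library, as in 16.6% of all genes. Whether the fold change of HES1 differs from those was not tested. HES5, HEY2, HEYL and DTX1 were not analysed here.

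Among genes that cut and activate the receptors, most did not pass. The sheddases ADAM10 and ADAM17 were at 0.05 ± 0.04 and 0.01 ± 0.07 (edgeR adjusted p = 0.508 and 0.952). After the length and GC correction ADAM10 passed, at 0.14 (edgeR adjusted p = 0.00290). The gamma-secretase gene NCSTN was at −0.02 ± 0.05 (edgeR adjusted p = 0.848). PSEN2, a presenilin gene of the same complex, fell from 2.43 to 1.37 CPM (−0.83 ± 0.28, edgeR adjusted p = 0.0260), a call that ended on leaving out CON replicate 1, CON replicate 3, OGD replicate 1 or OGD replicate 2 (0.0675 to 0.142). APH1A rose from 129 to 150.5 CPM (0.23 ± 0.05, edgeR adjusted p = 0.000174). PSENEN rose from 3.72 to 5.69 CPM (0.61 ± 0.19, edgeR adjusted p = 0.0160), but 56.5% of its exon bases overlap other genes, and the call ended without CON replicate 3, OGD replicate 2 or OGD replicate 3 (0.0998 to 0.141).

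Coactivators and corepressors of the RBPJ complex had 7 members lower and 2 higher among 16 measured, beside 9.48% and 10.2% of all genes, and 2 lower and 0 higher after the length and GC correction, beside 8.80% and 10.3%. The acetyltransferases CREBBP, KAT2A and EP300 fell (−0.28, −0.30 and −0.21), as did the corepressors NCOR1 and SPEN (−0.24 and −0.17). These proteins serve many other pathways. Their longest transcripts have 9587 (EP300) to 12232 (SPEN) nucleotides, except for KAT2A with 3109. After the length and GC correction KAT2A (−0.28) and NCOR1 (−0.13) still fell, while CREBBP (−0.11), EP300 (−0.06) and SPEN (−0.01) did not pass. SPEN also did not pass without OGD replicate 2. MAML2, a relative of MAML1, fell from 11.8 to 9.02 CPM (−0.38 ± 0.13, edgeR adjusted p = 0.0285), with overlapping groups and adjusted p of 0.00651 to 0.306 over the alternatives. Its call was lost with that correction and on leaving out CON replicate 1, CON replicate 3, OGD replicate 1 or OGD replicate 3. MAML3 was at 0.05 ± 0.15. SNW1 (0.21) and CIR1 (0.22), both bound to RBPJ in some complexes, rose, and neither passed after the correction or without CON replicate 3 or OGD replicate 3. CIR1 also failed without OGD replicate 1, without OGD replicate 2 and with scaling by total counts.

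Genes that act on ligand, receptor or sugar chains showed a few single calls. MIB2 and DTX3, which encode ubiquitin ligases, fell from 19.8 to 13.7 CPM (−0.53 ± 0.10, edgeR adjusted p = 4.53e-05) and from 23.9 to 16.6 CPM (−0.52 ± 0.09, edgeR adjusted p = 2.24e-05). Both calls held in every alternative tried. MIB1, the main ligase for ligand endocytosis, was at −0.07 ± 0.05, the receptor antagonist NUMB at −0.02 ± 0.05, FBXW7, which marks cleaved Notch for destruction, at −0.03 ± 0.09, and the fringe enzyme LFNG at 0.01 ± 0.23, none of which passed. The glycosyltransferase genes GXYLT1 (−0.25) and EOGT (−0.20) fell, and so did the kinase gene AAK1 (−0.21). The call of EOGT ended without CON replicate 3 and without OGD replicate 2, and that of AAK1 without CON replicate 1, without CON replicate 3 and after the length and GC correction.

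**Figure D5:**
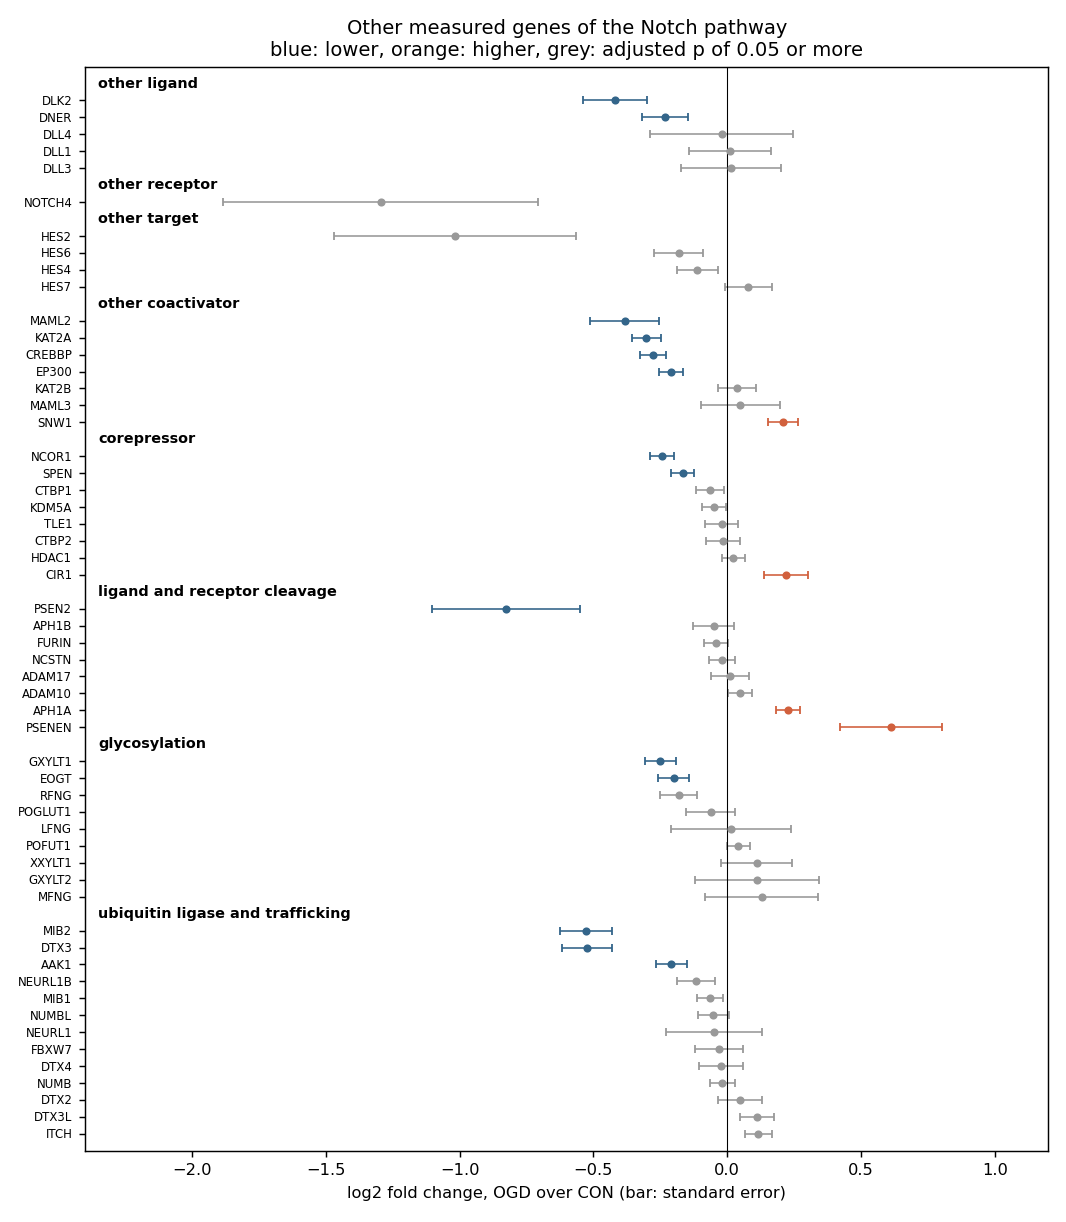
Log2 fold change, OGD over CON, of further pathway genes by role, with bars of 1 standard error. Blue genes fell, orange genes rose and grey genes did not pass at an edgeR adjusted p of 0.05. Blue points are found among ligands, coactivators, corepressors, cleavage genes, glycosylation genes and ubiquitin ligases, and the 4 orange points are SNW1, CIR1, APH1A and PSENEN.

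For each of JAG1, NOTCH1 and HES1, the genes most alike in pattern were listed by Pearson's r of log2 CPM over the 6 libraries, among 11182 genes averaging 5 CPM or more. Among the genes nearest to JAG1 was FAN1 (0.998). Nearest to NOTCH1 were ADAM22 (0.9995), ITPR3 (0.997) and ZDHHC14 (0.997), and nearest to HES1 were LAMB1 (0.999), SAMD4B (0.998) and DDIT4 (0.998). An r over 0.95 was reached by 378 genes for JAG1, 348 for NOTCH1 and 463 for HES1. The libraries form the groups CON and OGD, so genes that fell in OGD can reach a high r from that step alone.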

How the data were processed

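The deposited table gives raw read counts for each Ensembl gene, which the authors made with Trimmomatic, HISAT2, SAMtools, featureCounts and edgeR, per the submitters' processing notes. No versions or settings are given, nor whether counting used the strand. The notes name the mouse build GRCm38 although the IDs are human, so the build behind the counts is uncertain and no coordinates come from the files. No gene lay under 10 counts in more than 3 libraries, so low genes had been removed earlier, and genes without a value are not analysed here.

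Symbols matched for 17093 of 17104 IDs. Counts were scaled by TMM and tested with edgeR 4.0.16 (R 4.3.3): robust quasi-likelihood test, CON against OGD, all 6 libraries, no replicate block, two-sided, Benjamini-Hochberg adjustment over all genes, threshold 0.05. filterByExpr removed 0 genes. Standard errors came from the fold change and its F statistic. The fit was tested on simulated data. Ratios used counts plus 0.5 and exact permutation tests. Lengths and GC content are those of the longest coding transcript in GENCODE 29, known for 96.6% of genes, and the length and GC correction used mgcv 1.9.3. Alternatives used DESeq2 1.42.0 and limma 3.58.1. The 10 genes, the pathway list, the markers and the named genes (all members, every pathway gene that passed, and a few fixed by symbol) were chosen with earlier results of these data known. A few genes that these rules name are counted in the totals but not reported here or drawn.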

Additional observations from a re-analysis of the deposited data

How the results depend on the processing

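With 17 alternatives for each fitted value, the count of Notch genes that fell was 6 to 8 and the count that rose was 0. It was 7 with each library left out in turn and 6 with the filter at 1 CPM and with DESeq2, neither of which gave HEY1 an adjusted p. No sign of pairing by replicate number was seen: same-numbered deviations correlated at −0.00087, 0.083 and −0.0077, and differently numbered ones at −0.059 to 0.063. With 3 libraries per group these values cannot show that the libraries were unpaired. With the replicate number as a block 7 Notch genes fell, as did 1702 of all genes and 15 pathway genes. Leaving out a library gave 1079 (without CON replicate 3) to 1527 lower genes in all and 1 to 5 higher pathway genes. The log2 ratio of NOTCH3 to NOTCH2 ran from −0.0805 to 0.106 over left-out libraries. Signs also turned in values that passed in no setting: with total-count scaling DLL1 (−0.0185), ADAM17 (−0.0208) and LFNG (−0.0162), and after the length and GC correction, without and with the block, NOTCH3 (0.0063 and 0.0120), DLL4 (0.0161 and 0.0104), NUMB (0.0141 and 0.0140), MIB1 (0.0106 and 0.0107) and FBXW7 (0.0250 and 0.0237). On leaving out libraries the ranges were −0.128 to 0.118 for DLL1, −0.157 to 0.102 for DLL4, −0.006 to 0.13 for MAML3, −0.0363 to 0.0675 for ADAM17, −0.137 to 0.197 for LFNG, −0.0277 to 0.006 for NUMB and −0.0758 to 0.0143 for FBXW7. Of 168 values of Notch genes under alternatives, 163 kept direction and side of the threshold. The cause of these shifts was not tested. Dropping the filter left the tested genes as they were. Few reads limit HEY1, HES2, NOTCH3 and NOTCH4. An annotated transcript can be longer than the one in the cells, which limits the length and GC correction.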

Other observations

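Among the 57 further pathway genes, 5 passed with length and GC content corrected for and had not passed before (8.77%), as did 915 of all 17104 genes (5.35%). ADAM10, the main receptor sheddase, was at 0.14 (edgeR adjusted p = 0.00290), ITCH, a ubiquitin ligase, at 0.16 (0.00429), POFUT1, the enzyme that adds fucose to Notch, at 0.11 (0.0223), DTX3L, a Deltex relative, at 0.16 (0.0362) and RFNG, a fringe enzyme, at −0.17 (0.0410). Before the correction the same genes were at 0.05, 0.12, 0.04, 0.11 and −0.18.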
